A study of Sus scrofa with 41 samples.

Results

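The calpains are calcium-activated cysteine proteases, and calpastatin is the inhibitor of the ubiquitous calpains. The genes described here were 5 listed by name, CAPN1, CAPN2, CAPN3, CAPNS1 and CAST, and were read in psoas major muscle from 41 pigs. CAPN1 and CAPN2 encode the catalytic subunits of the ubiquitous μ-calpain and m-calpain, CAPNS1 encodes the small regulatory subunit that both share, CAPN3 encodes the calpain of skeletal muscle, and CAST encodes calpastatin. A pig Ensembl identifier was matched for 4 of the 5 genes, which gave 4 of the 25880 genes in the count tables, and all 4 passed the filter on low counts. CAST had no identifier in the table of gene names and was not analysed here.

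In muscle the ubiquitous calpains cut proteins that anchor the myofibril, and their activity against that of calpastatin is known for its part in the softening of meat after slaughter. CAPN3 binds titin in the sarcomere, and its loss in humans causes a limb-girdle muscular dystrophy. The ubiquitous calpains are switched on by calcium and held back by calpastatin, so a level of mRNA is not a level of protease activity.

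The pigs were uncastrated males, 13 Danbred Duroc and 28 Danbred Landrace, raised on a feed trial and slaughtered at about 100 kg, with psoas major taken immediately after slaughter into RNAlater. No animal was treated, so the comparisons were between the breeds and along 3 measures of each pig: the RNA integrity number (RIN, 6.5 to 8.8), the age at sampling (131 to 166 days) and the feed conversion ratio (FCR, 1.83 to 2.25). The methods describe FCR as growth over feed, but values near 2 can only be feed per unit of gain, so a low FCR is read here as an efficient pig. The breeds also differed in these measures, with RIN 8.12 ± 0.426 (SD, n = 13) in Duroc and 7.84 ± 0.496 (n = 28) in Landrace, age 147 ± 7.19 against 155 ± 4.75 days, and FCR 1.97 ± 0.103 against 2.10 ± 0.0796. The pigs came in 5 slaughter batches that held 1, 15, 9, 5 and 11 pigs, and batch 1 held a single Duroc pig.

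Each library had 22188911 to 25954816 read pairs on genes, with a median of 25243577. Duroc pig 10 and Landrace pig 27 stood apart, since only 71.1% and 69.9% of their pairs fell on genes, against a median of 79.2%. They also had low RIN, 7.0 and 6.6, and CAPN2 was lowest in these 2 pigs, so its level, its spread and its joint and within-batch values for breed and RIN are given with and without them. Levels are in CPM, the count of a gene scaled to libraries of 1000000 pairs on genes, with library sizes adjusted by TMM. The scale takes no account of gene length, so levels were compared between pigs. Between genes they served only to pick the most abundant ones of a list for naming. Because the libraries are of whole muscle, fewer cells of a type and less RNA per cell cannot be told apart.

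By the RefSeq annotation of Sscrofa11.1, CAPN1 (ENSSSCG00000012999) lies on chromosome 2 from 6997513 to 7024410 and overlaps the RefSeq gene LOC102165049 over 7185 bases. CAPN2 (ENSSSCG00000029411) lies on chromosome 10 from 19758824 to 19820241, with another calpain gene, CAPN8, as its neighbour 26717 bases away. CAPN3 (ENSSSCG00000004728) lies on chromosome 1 from 128960117 to 129013508, between ZNF106 and GANC. CAPNS1 (ENSSSCG00000030149) lies on chromosome 6 from 45511410 to 45518610, with COX7A1 only 614 bases beyond it. CAST lies on chromosome 2 from 103255738 to 103378623 and overlaps ERAP1 over 196 bases.

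CAPN1 was at 101 ± 15.3 CPM (SD, n = 41), from 67.5 to 138 CPM and from 1791 to 3159 counts per pig. CAPN2 was at 58.3 ± 14.0 CPM and had the widest range of the 4 genes, 17.4 to 82.7 CPM, which is a ratio of 4.76 between the highest and the lowest pig. Without Duroc pig 10 and Landrace pig 27 its range was 37.9 to 82.7 CPM, a ratio of 2.18, beside 2.05 for CAPN1, and its level was 60.3 ± 11.0 CPM (SD, n = 39). CAPN3 was at 599 ± 88.1 CPM, from 390 to 752 CPM. CAPNS1 was at 23.6 ± 2.31 CPM, from 19.3 to 29.2 CPM. The coefficient of variation over the pigs was 15.2% for CAPN1, 24.01% for CAPN2, 14.7% for CAPN3 and 9.79% for CAPNS1, beside a median of 24.3% over the 11146 genes tested. Without those 2 pigs it was 18.2% for CAPN2. Of all genes tested over the 41 pigs, 1.24% varied less than CAPNS1 and 49.1% varied less than CAPN2.

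The first comparison asked whether the calpain genes differed between the breeds. In Duroc, CAPN3 was at 464 CPM in the lowest pig, 568 CPM at the median and 686 CPM in the highest pig. In Landrace it was at 390, 621 and 752 CPM. The groups overlapped widely, with 8 of 28 Landrace pigs above the highest Duroc pig and 2 below the lowest. The group means, 575 ± 65.4 CPM (SD, n = 13) and 610 ± 95.8 CPM (n = 28), differed by less than the SD of either breed.

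With FCR, RIN, age and batch held in the same model, CAPN3 was higher in Landrace by 0.42 on the log2 scale (SE 0.0893), a ratio of 1.34, with an FDR of 0.000794 by edgeR's quasi-likelihood test. Here FDR is the Benjamini-Hochberg value over all genes tested, and a gene was called below 0.1. CAPN3 was the only member called among the 4, beside 33.1% of all genes tested called for breed and 15.6% called higher in Landrace. The adjusted difference depended on the other terms of the model. It was 0.27 with age left out (FDR 0.0264), 0.20 with batch left out (FDR 0.164) and 0.09 with breed alone (FDR 0.503). Within the batches that held at least 2 pigs of each breed, the difference in mean log2 CPM was 0.16 in batch 2, -0.10 in batch 3, 0.06 in batch 4 and 0.28 in batch 5. No single pig decided the adjusted value, which ran from 0.40 to 0.46 over the 41 fits that each left out 1 pig and stayed called in all of them.

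**Figure D1:**
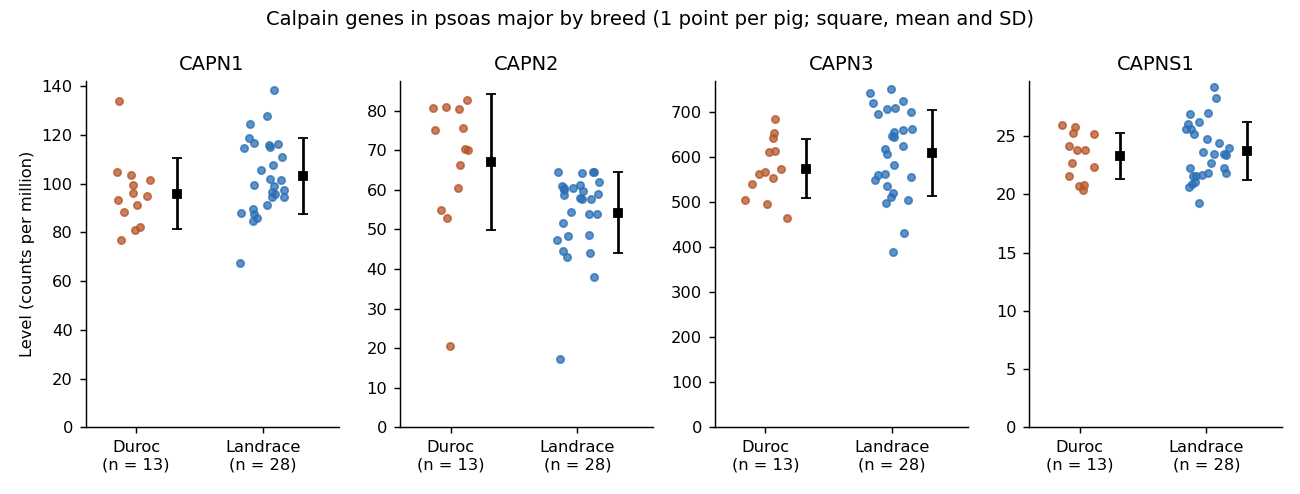
Level of each calpain gene in CPM (y axis from 0) by breed, 1 point per pig, with the mean and SD as a black square and bar. CAPN2 reached at most 64.5 CPM in Landrace while its Duroc median was 70.4 CPM, and CAPN3, CAPN1 and CAPNS1 overlapped across the breeds.

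CAPN2 showed the clearest separation by eye, but its call turned on the model. In Duroc it was at 20.5 CPM in the lowest pig, 70.4 CPM at the median and 82.7 CPM in the highest, and in Landrace at 17.4, 57.9 and 64.5 CPM. None of the 28 Landrace pigs lay above the Duroc median. The means were 67.0 ± 17.2 CPM (SD, n = 13) and 54.2 ± 10.3 CPM (n = 28), a ratio of 0.810. Without Duroc pig 10 and Landrace pig 27 they were 70.9 ± 10.4 CPM (n = 12) and 55.6 ± 7.46 CPM (n = 27). In the joint model the difference was -0.08 (SE 0.153, FDR 0.756), and with breed alone it was -0.30 (FDR 0.0881). Leaving out 1 pig at a time, the joint value ran from -0.20 without Duroc pig 10 to -0.00102 without Duroc pig 6, and it was called in 0 of the 41 fits, with a lowest FDR of 0.282. Without both Duroc pig 10 and Landrace pig 27 it was -0.21 (FDR 0.0935), past the threshold, as were 33.4% of all genes tested in that fit. Landrace was lower in each of batches 2 to 5, with differences of -0.14, -0.28, -0.55 and -0.18 on the log2 scale. Both of these pigs were in batch 5, where the difference without them was -0.40 (3 Duroc and 6 Landrace pigs). RIN, with which CAPN2 also moved, was lower in Landrace, and the part of RIN in the breed difference was not tested beyond its term in the model.

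CAPN1 and CAPNS1 were not called for breed. The CPM of CAPN1 ran from 76.7 to 134 among Duroc pigs and from 67.5 to 138 among Landrace pigs, with an adjusted difference of 0.10 (95% interval -0.09 to 0.28, FDR 0.477). Leaving out 1 pig at a time, that difference ran from 0.06 without Landrace pig 8 to 0.16 without Duroc pig 3. CAPNS1 was at 20.4 to 26.0 CPM and 19.3 to 29.2 CPM, with a difference of 0.09 (-0.07 to 0.25, FDR 0.436). It was -0.00451 when the strand columns described below were summed, and 0.06 to 0.12 over the fits that left out 1 pig. Both signs turned to -0.08 and -0.09 when libraries were scaled by library size alone, a scaling that moved the median of all genes by -0.18, and relative to that median they stood at 0.11 and 0.09.

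Markers of fibre type and of other cells were read for breed beside the calpains, against 15.6% of all genes called higher and 17.5% called lower in Landrace. Fast-fibre markers were called higher in Landrace for 5 of 7 tested and lower for 0, among them TNNT3 by 0.60 and MYL1 by 0.44, and slow-fibre markers were called lower for 2 of 6, TNNI1 (-0.79) and ATP2A2 (-0.73). The summed level of the fast markers ran from 37058 to 61360 CPM in Duroc and from 26547 to 82125 CPM in Landrace. Endothelial markers were called lower in Landrace for 3 of 4, KDR, CDH5 and PECAM1, with summed levels of 52.0 to 157 CPM in Duroc and 29.7 to 131 CPM in Landrace. Smooth muscle markers were called lower for 2 of 3, fibroblast markers for 2 of 5, and the satellite cell marker PAX7 was lower (-1.18). Leukocyte and adipocyte markers were called lower for 1 of 6 and 1 of 3. The 13 fibre markers tested had at least 3230 counts in every pig, and the other 8 of the 21 listed, MYH1, MYH2, MYH4 and MYH7 among them, were not analysed here. The part of these cells in the calpain values was not tested.

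The second comparison followed the calpain genes along RIN, a measure of how intact the RNA was, and here 3 of the 4 were called, beside 51.8% of all genes tested. CAPN2 rose by 0.63 per unit of RIN on the log2 scale (SE 0.124, FDR 8.17e-05 by edgeR). CAPN3 rose by 0.24 (SE 0.0701, FDR 0.00547) and CAPN1 fell by 0.23 (SE 0.0692, FDR 0.00762). CAPNS1 changed by -0.04 (95% interval -0.16 to 0.08, FDR 0.618). Among all genes 23.9% were called higher and 27.9% lower with RIN, so a call along RIN is common in these libraries.

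CAPN2 was at 40.3 ± 18.7 CPM (SD, n = 6) in the pigs with RIN below 7.5 (51.0 ± 11.2 CPM, n = 4, without Duroc pig 10 and Landrace pig 27), 52.1 ± 8.54 CPM (n = 9) from 7.5 to 7.9, 60.4 ± 7.53 CPM (n = 14) from 8.0 to 8.2, and 69.4 ± 9.12 CPM (n = 12) from 8.3 upwards. The lowest values were 17.4 CPM in Landrace pig 27 (RIN 6.6), 20.5 CPM in Duroc pig 10 (RIN 7.0) and 37.9 CPM in Landrace pig 1 (RIN 6.5). Other pigs of low RIN were not low, with 54.3 and 64.5 CPM in Landrace pigs 22 and 23, both at RIN 7.1. Without Duroc pig 10 and Landrace pig 27 the slope was 0.36 (FDR 0.00126), past the threshold and smaller by more than 1.5 times. The slope was 0.43, 1.03 and 0.97 within batches 2, 3 and 5, the ones with at least 9 pigs. Without those 2 pigs the slope in batch 5 was 0.18 (n = 9).

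CAPN1 ran the other way. It was at 122 ± 8.36 CPM (SD, n = 6) below RIN 7.5, 103 ± 20.8 CPM (n = 9), 99.7 ± 7.97 CPM (n = 14) and 89.8 ± 7.34 CPM (n = 12) in the same bins of RIN. The 6 pigs with the lowest RIN lay between 111 and 134 CPM. Within batches 2, 3 and 5 the slope was -0.21, -0.53 and -0.20. The sign of CAPN1 turned to 0.09 when libraries were scaled by library size alone, which raised the median of all genes by 0.31, and relative to that median CAPN1 stood at -0.21 there and at -0.22 under TMM. With no filter on low counts the slope was -0.16 and no longer called (FDR 0.114).

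The log2 ratio of CAPN1 to CAPN2 counts in the same library, which no scaling touches, was 1.75 ± 0.848 (SD, n = 6) below RIN 7.5 and 0.38 ± 0.249 (n = 12) from RIN 8.3 upwards. Duroc pig 10 and Landrace pig 27 had the highest ratios, 2.71 and 2.84, and without them it was 1.24 ± 0.377 (n = 4) below RIN 7.5. By breed it was 0.57 ± 0.702 in Duroc and 0.95 ± 0.516 in Landrace, and 0.40 ± 0.297 and 0.88 ± 0.366 without them. These ratios are given as a description, since they were formed after both genes were seen.

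CAPN3 rested on few pigs along RIN. It was at 390, 504 and 563 CPM in Landrace pig 1, Landrace pig 27 and Duroc pig 10, and at 645 to 721 CPM in the other 3 pigs below RIN 7.5. Without the 2 pigs of RIN below 7 the slope was 0.07 (FDR 0.582), and without Landrace pig 1 alone it was 0.13 (FDR 0.178). With batch left out it was 0.09 (FDR 0.363). Within batches 2, 3 and 5 it was 0.34, -0.13 and 0.09, and in batch 5 it was -0.12 without Duroc pig 10 and Landrace pig 27, so the direction was not shared by all batches.

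**Figure D2:**
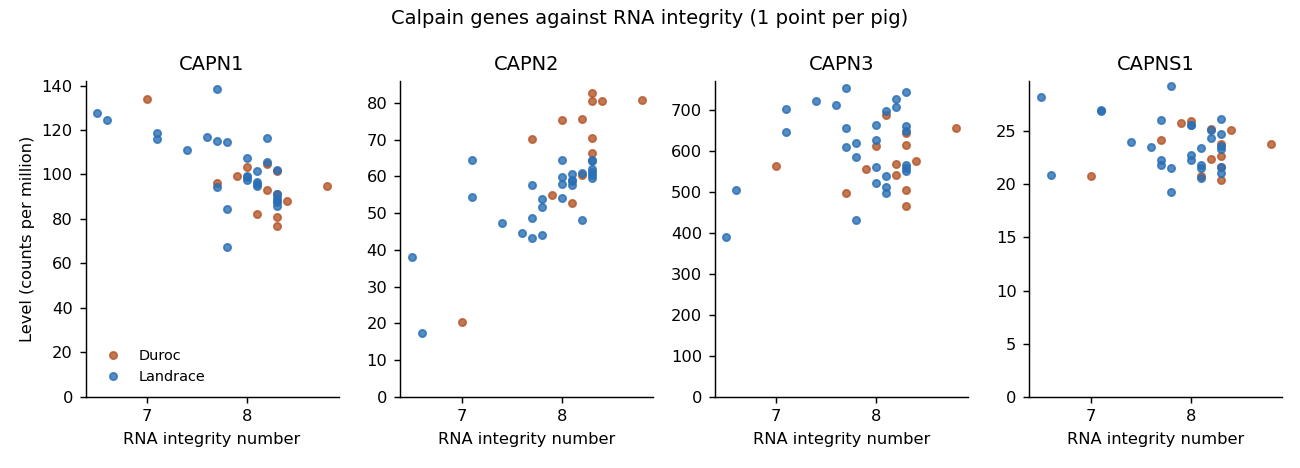
Level of each calpain gene in CPM (y axis from 0) against RNA integrity number (x axis), 1 point per pig, with Duroc in brown and Landrace in blue. CAPN2 rose from 40.3 CPM on average below RIN 7.5 to 69.4 CPM from RIN 8.3, CAPN1 fell from 122 to 89.8 CPM, and CAPN3 and CAPNS1 showed no such step.

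Within the 28 Landrace pigs alone, 3 of the 4 genes were called along RIN, beside 42.9% of all genes tested and 19.8% called higher. The slopes were 0.49 for CAPN2 (FDR 0.00373), 0.29 for CAPN3 (FDR 0.00787) and -0.20 for CAPN1 (FDR 0.0572). Without Landrace pig 27 they were 0.34 (FDR 0.00493), 0.26 (FDR 0.0351) and -0.21 (FDR 0.0803). Landrace pig 1, without which CAPN3 lost its call in the joint model, was not left out within Landrace. Within the 13 Duroc pigs none was called by edgeR, where no gene was called in all, with 1824 genes at an unadjusted p under 0.05. The CAPN2 slope there was 1.48 (SE 0.339, FDR 0.225), and it was 0.54 without Duroc pig 10. DESeq2 called CAPN2 within Duroc (FDR 0.00590), as it called 4.92% of its genes. The difference between the breeds' slopes for CAPN2 was -0.65 (p = 0.018, FDR 0.947 by edgeR), and without Duroc pig 10 it was 0.08.

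Fibre and connective tissue markers were read along RIN too, against 23.9% of all genes called higher and 27.9% called lower. Slow-fibre markers were called lower with rising RIN for 5 of 6 and higher for 0, and fast-fibre markers were called higher for 3 and lower for 3 of 7. Fibroblast markers were called higher for 3 of 5, with PDGFRA up by 1.62 and LUM up by 1.06 per unit. Leukocyte markers were called lower for 2 of 6 and smooth muscle markers for 1 of 3, and no adipocyte, endothelial or satellite cell marker was called. The part of these markers in the calpain slopes was not tested.

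The third comparison was along age, where 1 of the 4 genes was called, beside 1.76% of all genes tested and 0.727% called lower. CAPN3 fell by 0.24 per 10 days on the log2 scale (SE 0.0716, FDR 0.0995 by edgeR), just inside the threshold. In Duroc it was at 600 ± 60.1 CPM (SD, n = 8) in pigs younger than 150 days and 535 ± 57.3 CPM (n = 5) from 150 days. In Landrace it was at 632 ± 128 CPM (n = 6) below 150 days, 609 ± 75.4 CPM (n = 12) from 150 to 156 days and 598 ± 105 CPM (n = 10) from 157 days. These age groups overlap in each breed.

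The age slope of CAPN3 lost its call in 25 of the 41 fits that left out 1 pig, with values from -0.29 to -0.20, and it was -0.07 without the breed term, -0.05 without batch and -0.02 alone. Within Landrace it was -0.31 (FDR 0.415), where 0.0% of the 11020 genes tested were called and 1233 had an unadjusted p under 0.05. Within Duroc it was -0.04 (FDR 0.999), where 0.00952% of all genes tested were called. DESeq2 called it with an FDR of 0.0353, as it called 5.16% of its genes. The other 3 genes had slopes between -0.04 and 0.02 per 10 days and were not called. Among the marker lists 2 of 4 endothelial markers were called higher with age, beside 1.03% of all genes tested.

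**Figure D3:**
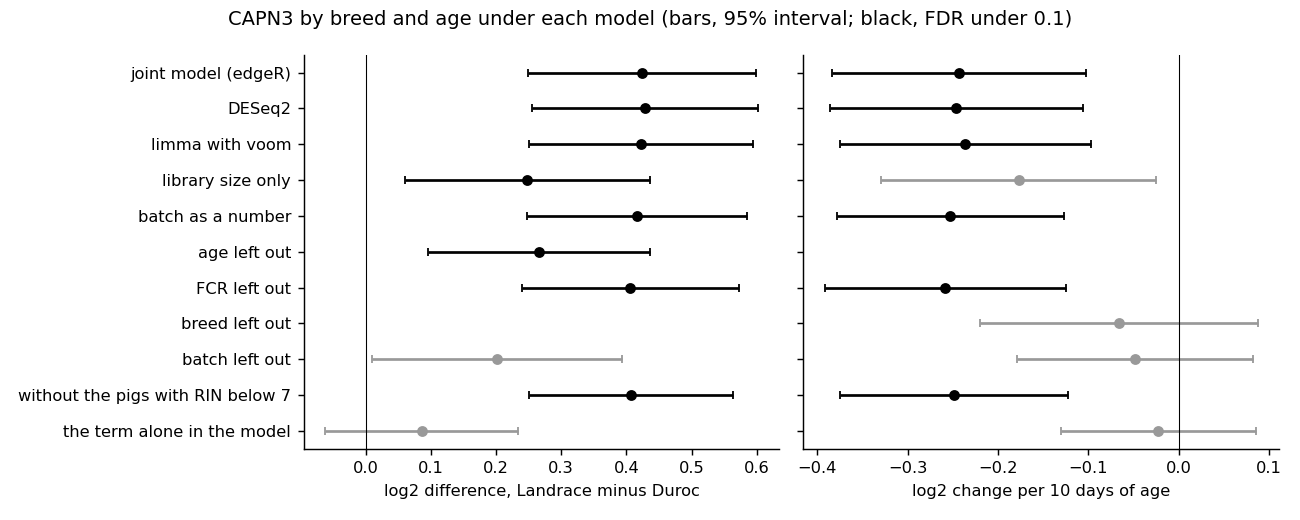
CAPN3 difference between Landrace and Duroc (left, log2) and slope per 10 days of age (right, log2) under the joint model and the alternatives named on the axis, with 95% intervals as bars and black points for an FDR under 0.1. Over the models plotted the breed difference ran from 0.09 to 0.43, and the age slope from -0.26 to -0.02.

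The fourth comparison was along FCR, the trait of the study. None of the 4 genes was called, beside 0.0% of the 11146 genes tested by edgeR, where 968 genes had an unadjusted p under 0.05. DESeq2 called 5 genes (0.0464%) and limma with voom called 0, and no calpain was among them. Per 0.1 of FCR, the change was -0.04 for CAPN1 (95% interval -0.11 to 0.03), 0.03 for CAPN2 (-0.08 to 0.15), -0.02 for CAPN3 (-0.09 to 0.04) and -0.02 for CAPNS1 (-0.08 to 0.04). The smallest unadjusted p was that of CAPN1, 0.22. The value of CAPN2 turned to -0.03 without Duroc pig 10, and was also -0.03 without both that pig and Landrace pig 27. The value of CAPN1 was -0.02 without Landrace pig 8. No calpain was called along FCR within either breed, nor for a difference between the breeds' slopes, but edgeR called 0.0% of all genes there too. The genes with an unadjusted p under 0.05 were 606 of 11020 within Landrace, 564 of 10509 within Duroc and 582 of 11146 for the difference.

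CAPNS1 depended on how read pairs were counted. The libraries were not stranded, and the files hold an unstranded count and a count for each strand. For CAPN1, CAPN2 and CAPN3 the sum of the strand counts over the unstranded count had a median of 1.00. For CAPNS1 it was 4.74 at the median, from 3.27 to 9.47, so that 301 to 731 pairs were counted without strand and 2359 to 3390 in the strand columns together. A ratio over 2 was found for 6.40% of the genes tested. The RefSeq table places no gene over CAPNS1, and the cause of its ratio was not tested. The ratio was highest in Duroc pig 10 and Landrace pig 27, at 9.47 and 8.90.

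With the summed strand columns, the count at CAPNS1 fell by 0.41 per unit of RIN, against -0.04 in the unstranded column. The fall had an SE of 0.0633 and an FDR of 2.81e-06 by edgeR, beside 53.5% of all genes called in that fit. Pairs in an overlap of genes can come from either gene, so this slope was not assigned to CAPNS1 mRNA. The level of CAPNS1 and its small spread therefore apply to the pairs that the unstranded column kept.

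**Figure D4:**
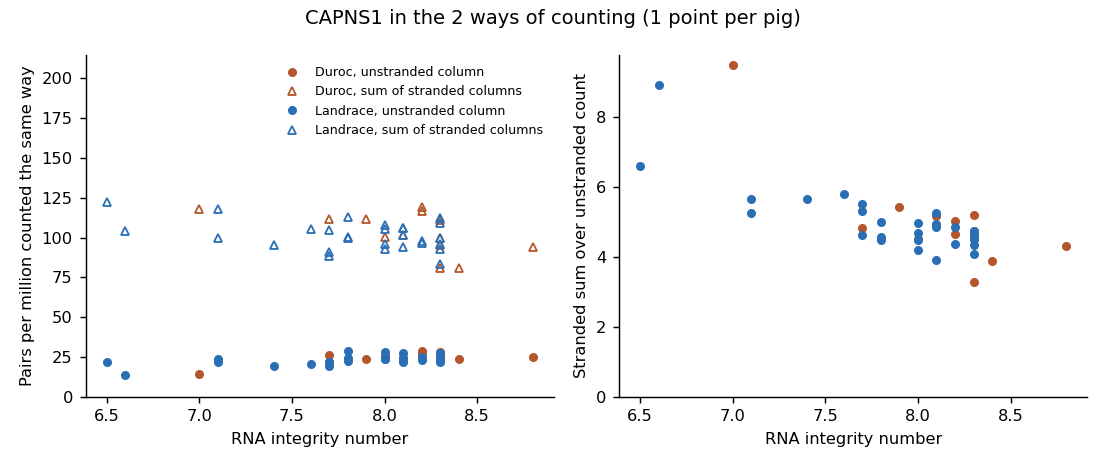
CAPNS1 level in CPM within each way of counting (left) in the unstranded column (filled) and the summed strand columns (open), and their ratio in counts (right), against RNA integrity number, 1 point per pig. The ratio lay between 3.27 and 9.47 and was highest in pigs of low RIN.

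After the 4 covariates and batch were taken out, the residual log2 levels of the calpain genes were compared over 41 pigs, as a description. The genes most like CAPN2 were MYO1C (r = 0.93), TNFAIP1 (0.93) and PITPNB (0.91) of 11145 genes. Those most like CAPN1 were ENSSSCG00000027076 (0.84), MIF (0.83) and PUF60 (0.83), and those most like CAPN3 were YBX3 (0.76), NCOA5 (0.75) and ZNF777 (0.74). For CAPNS1 they were FOXO6 (0.72), USP5 (0.68) and ZDHHC3 (0.66). Among the members the highest correlation was 0.40 between CAPN2 and CAPNS1, with 0.34 between CAPN1 and CAPN3, 0.32 between CAPN1 and CAPNS1, -0.27 between CAPN1 and CAPN2, -0.17 between CAPN2 and CAPN3 and -0.03 between CAPN3 and CAPNS1. Without Duroc pig 10 and Landrace pig 27 the value for CAPN2 and CAPNS1 was 0.20 (n = 39), that for CAPN2 and CAPN3 was -0.26, and the highest among the members was 0.36 between CAPN1 and CAPNS1. Those for CAPN2 with MYO1C, TNFAIP1 and PITPNB were 0.90, 0.90 and 0.86. All of these values come from the same libraries.

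Of 12 other genes of the calpain family, 5 were tested, and CAPN8, CAPN9, CAPN11, CAPN12 and CAPN13 had at most 5 counts in any pig, while CAPN14 was at 0 in all. CAPN6, a calpain that lacks the active cysteine, was at 23.98 ± 7.99 CPM (SD, n = 41) and lower in Landrace (-0.56, FDR 0.0302). CAPN15 was lower (-0.40, FDR 0.0529), and these were the 2 of 5 called for breed, beside 33.1% of all genes. Along RIN, CAPN7 rose by 0.71, and CAPN10 and CAPN15 fell by 0.51 and 0.28, 3 of 5 called beside 51.8% of all genes. The median over the 5 was 0.04 for breed, beside -0.002 over all genes.

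Other proteolytic systems were read from fixed lists. Among cathepsins and cystatins, the lysosomal proteases and their inhibitors, 14 of 17 were tested, 1 was called higher and 5 lower in Landrace, beside 15.6% and 17.5% of all genes, and the median was -0.16. CTSD, at 115 ± 37.7 CPM (SD, n = 41), averaged 146 CPM over the Duroc pigs and 101 CPM over the Landrace pigs, a difference of -0.60 (FDR 0.000885). CTSV was higher by 0.53 (FDR 0.00899), and CTSA and CTSH were lower (-0.38 and -0.73). Along RIN 7 of 14 were called lower and 0 higher, with a median of -0.23, beside 27.9% of all genes called lower. Among caspases, 7 of 10 were tested. CASP2 and CASP8 were lower in Landrace (-0.45 and -0.66), 2 of 7 beside 17.5% of all genes. CASP9 alone was called along RIN, by 0.47, which is 1 of 7 beside 51.8% of all genes.

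Among genes for proteins that calpains are known to cut in the sarcomere and costamere, 14 of 17 were tested, 5 were called higher and 1 lower in Landrace, beside 15.6% and 17.5% of all genes, with a median of 0.20. TNNT3 (0.60), MYBPC2 (0.54) and NEB (0.36) were higher and SPTAN1, for the spectrin alpha chain, was lower (-0.47). Along RIN 4 were called higher and 4 lower, beside 51.8% of all genes called in either direction. Among genes of other limb-girdle dystrophies, 8 of 12 were tested and 4 were called higher in Landrace, ANO5 (0.58), TCAP (0.52), TRIM32 (0.34) and DYSF (0.31), beside 15.6% of all genes called higher, and none was called lower. Along RIN 3 were called higher and 3 lower. In none of these 5 lists was a gene called along age or FCR, beside 1.76% and 0.0% of all genes tested.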

How the data were processed

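Psoas major from 41 pigs was measured by polyA mRNA sequencing (100 base paired ends, BGISEQ-500). Per the labels and the methods, the authors trimmed with Trimmomatic 0.39, aligned to Sscrofa11.1 with STAR 2.7.1a and counted on Ensembl release 96. The deposited counts are raw, and the unstranded column was used. Between 19.1% and 30.1% of the pairs counted in each library fell on no single gene and were left out. Samples were grouped by the breed label. Genes were kept by filterByExpr (minimum count 10) and fitted with edgeR 4.0.16 (quasi-likelihood, legacy form, TMM) in R 4.3.3, on 5 terms (breed, RIN, FCR, age in days, and slaughter batch as a factor), with Benjamini-Hochberg values over 11146 genes, threshold 0.1. DESeq2 1.42.0 and limma 3.58.1 with voom were alternatives. The scripts were tested on simulated data. The members and gene lists were chosen with earlier results of these data known. Named genes were the members, the 3 genes most alike to each, and from each list those with the smallest p for a term and the most abundant. Levels per kilobase and the planned ratio of CAST to the calpains were not computed, because no exon lengths and no CAST identifier were at hand, and sequences are not shown for the same reason. Labels do not name separate litters, so p-values measure the spread between these pigs.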

Additional observations from a re-analysis of the deposited data

Results flagged for a closer look

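CAPNS1 was flagged because the strand columns, which the comparisons do not use, held more pairs than the unstranded column, with a median ratio of 4.74 over the 41 pigs. CAPN1, CAPN2 and CAPN3 had a median of 1.00. Such pairs lie where genes overlap on both strands, and which gene overlaps CAPNS1 was not tested.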

How the results depend on the processing

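Of 284 coefficients under alternatives other than leaving out 1 pig, 247 kept their direction and their side of the threshold, 12 lost the call, 4 gained it and 21 turned sign. No paired analysis was possible because replicate numbers only name the pigs and the labels pair no animals. The alternatives without the breed or batch term, with a term alone, and without 1 or both of the 2 pigs with under 75% of pairs on genes were chosen after seeing the data. The count of calpains called for breed went from 1 to 0 without batch (21.8% of all genes called) and to 2 without those pigs (33.4%). For age it went from 1 to 0 with library size only (0.404% of all genes called), no filter (0.489%) and without breed (0.0628%). It was also 0 without batch (0.0%) and with age alone (1.79%), and lay between 0 and 1 over the fits leaving out 1 pig. Within Duroc DESeq2 called 1 along RIN (4.92% of its genes). With library size only, signs turned for breed in CAPN1 (-0.0752) and CAPNS1 (-0.0894), for RIN in CAPN1 (0.0871) and CAPNS1 (0.262), for age per 10 days in CAPN2 (0.0238) and CAPNS1 (0.0286), and for FCR per 0.1 in CAPN1 (0.0117), CAPN3 (0.0352) and CAPNS1 (0.0387). That scaling moved the median of all genes by -0.18 for breed, 0.31 per unit of RIN, 0.07 per 10 days of age and 0.06 per 0.1 of FCR, and relative to the median all 9 of these values had the sign they had under TMM, such as -0.04 for CAPN2 along age and -0.05 for CAPN1 along FCR, the same as relative to the median under TMM. The summed strand columns turned CAPNS1 for breed (-0.00451) and age (0.0170), no filter turned CAPNS1 for RIN (0.0233), and leaving out FCR turned CAPN1 for age (-0.00568). Leaving out batch turned CAPN2 for age (0.0188), leaving out breed turned CAPN3 for FCR (0.0229), and a term alone turned CAPNS1 for age (0.00368) and CAPN1 and CAPN2 for FCR (0.0101 and -0.0818). Without the 2 pigs, CAPN2 turned for age (0.0505) and FCR (-0.0335), and DESeq2 within Duroc turned CAPNS1 for FCR (-0.00843). Leaving out 1 pig, age ran from -0.0102 to 0.0473 for CAPN1 and from -0.0799 to 0.0510 for CAPN2, FCR from -0.0290 to 0.0769 for CAPN2, and RIN from -0.0784 to 0.0434 for CAPNS1. Without Duroc pig 10 the RIN slope within Duroc was 0.0447 for CAPN1, and the difference in RIN slope between breeds was -0.164 for CAPN1, 0.0779 for CAPN2, -0.0309 for CAPN3 and 0.0758 for CAPNS1. The cause was not tested. CAPN2 rests on as few as 250 counts and CAPNS1 on 301 in a pig, where counting error is largest.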
